A study of Mus musculus with 8 samples.

Results

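Heme breakdown and iron handling were examined through 10 genes, *Hmox1*, *Slc40a1*, *Slc11a1*, *Slc48a1*, *Fth1*, *Ftl1*, *Tfrc*, *Blvra*, *Blvrb* and *Ncoa4*, in macrophages sorted by FCGR4 from the fat of calorie-restricted obese mice. The members were chosen by symbol for their role in the pathway. They are 10 of the 54146 genes in the deposited counts, and all 10 passed the filter on low counts, as did 17095 genes in all. Bulk RNA-Seq was performed on 8 libraries, 1 of FCGR4+ and 1 of FCGR4- macrophages from the epididymal white adipose tissue (eWAT) of each of 4 male C57Bl6 mice. All 4 mice ate a high-fat high-cholesterol (HFHC) diet freely for 24 weeks from young adulthood and then had their food cut by 30% over 2 weeks (stCR, a short caloric restriction), so the controls carry the same diet and restriction as the FCGR4+ cells. Cells were sorted as CD45+ and CD11b+ and as negative for CD3, B220, Ly6G and SiglecF before the split on FCGR4, the mouse Fc gamma receptor that the antibody recognized. The mice are numbered 1 to 4 in the labels, and mice 1 and 2 carry another animal ID prefix than mice 3 and 4.

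Macrophages recycle iron. A red cell or free heme that is engulfed ends in the phagolysosome, heme crosses into the cytosol, and heme oxygenase opens its ring, which frees iron, carbon monoxide and biliverdin. Biliverdin reductases turn biliverdin into bilirubin, while iron is stored in ferritin or leaves the cell through ferroportin, the only known cellular iron exporter of mammals. Iron also sets the fate of several of these mRNAs: iron regulatory proteins bind a short hairpin, the iron-responsive element, and block translation where it lies in a 5′ UTR, or protect the mRNA from decay where it lies in a 3′ UTR. In adipose tissue, macrophages rich in iron and in its handling genes have been described.

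The iron-responsive elements of the members are shown because iron can act through them. In a 5′ UTR it can act on translation, a step that counts of mRNA do not show. In a 3′ UTR it can act on decay of the mRNA, which can change the counts. A script searched the annotated UTRs of GENCODE transcripts on GRCm38, the build also called mm10, on the transcribed strand. It looked for the loop CAGTGN closed by 5 paired bases, at most 1 of them a G-U pair, with a C just before the stem, and each stretch of 27 bases is written 5′ to 3′ with the loop bases in capitals and with 5 bases added on either side. A match of this kind was found in the 5′ UTR of 18 of 20916 genes (0.0861%), 3 of them members, and in the 3′ UTR of 51 of 21045 genes (0.242%), 1 of them a member.
*Fth1*, 5′ UTR, chr19:9982733-9982759, plus strand: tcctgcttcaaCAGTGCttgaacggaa
*Ftl1*, 5′ UTR, chr7:45459780-45459806, minus strand: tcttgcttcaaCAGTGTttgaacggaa
*Slc40a1*, 5′ UTR, chr1:45925466-45925492, minus strand: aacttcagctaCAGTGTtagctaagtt
*Tfrc*, 3′ UTR, chr16:32631220-32631246, plus strand: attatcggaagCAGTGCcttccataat
*Tfrc*, 3′ UTR, chr16:32631599-32631625, plus strand: attatcgggagCAGTGTcttccataat
*Tfrc*, 3′ UTR, chr16:32631664-32631690, plus strand: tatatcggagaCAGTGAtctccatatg
*Tfrc*, 3′ UTR, chr16:32631711-32631737, plus strand: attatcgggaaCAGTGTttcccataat
The storage genes and the exporter carried 1 match each at the start of the mRNA, and the transferrin receptor carried 4 behind its coding part. These are matches to a pattern of letters. The other members had no match to it.

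The libraries held between 35992794 and 66856746 counts. *Fcgr4* itself, the gene of the sort (chromosome 1, 171018920 to 171029761), was read at 215, 139, 208 and 236 CPM (counts scaled to library size, on libraries normalized by edgeR's TMM method) in the FCGR4+ macrophages of mice 1 to 4, and at 48.5, 52.2, 81.1 and 82.9 in the FCGR4- macrophages of the same mice. The groups did not overlap, and *Fcgr4* was 3.05-fold higher in FCGR4+ macrophages (log2 fold change 1.61 ± 0.17 SE, adjusted P = 0.0162). This and each adjusted P value that follows come from the quasi-likelihood test of edgeR, fitted with the mouse as a block and adjusted by Benjamini-Hochberg over all genes tested, unless another tool is named. The markers written for macrophages were present in all libraries, at a sum of 20881 to 45642 CPM in FCGR4+ and 18256 to 43161 CPM in FCGR4- macrophages, and 0 of 7 passed the threshold of an adjusted P value under 0.1. The sum was higher in FCGR4+ macrophages in 4 of 4 mice, 6 of the 7 had higher values, and 3 of these, *Adgre1*, *Fcgr1* and *Mertk*, had an unadjusted P value under 0.05 by edgeR, with ratios of 1.46, 1.48 and 1.35. Markers of several other cell types were lower in FCGR4+ libraries. The 7 markers of mast cells and basophils summed to 6.85 to 24.0 CPM in FCGR4+ and 194 to 2072 CPM in FCGR4- macrophages, with 7 of 7 past the threshold. The 6 neutrophil markers summed to 109 to 523 against 367 to 2325 CPM, with 4 of 6 past the threshold, and the 5 fibroblast markers to 127 to 254 against 312 to 1337 CPM, with 3 of 5. The 6 dendritic cell markers and the 6 T and NK cell markers summed to at most 92.2 and 48.0 CPM in any library, with 3 of 6 and 5 of 6 past the threshold and all lower in FCGR4+ macrophages. In such bulk samples, fewer cells of a type and less RNA per cell cannot be told apart.

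Between the populations, most members were close to level, and *Slc40a1*, *Hmox1* and *Blvra* differed most. None of the 10 passed the threshold in either direction by edgeR, where 0.0819% of all genes tested were called higher and 1.19% lower. At an unadjusted P value under 0.05 there were 3 members, *Slc40a1* and *Hmox1* with lower values and *Blvra* with higher values in FCGR4+ macrophages, beside 9.77% of all genes. DESeq2 called 2 members, *Slc40a1* and *Blvra*, and 5.99% of all genes. The median log2 fold change was -0.01 over the members and -0.00 over all genes, and the median size of the change without its sign was 0.10 over the members and 0.25 over all genes. In 4 of 4 mice, 2 members were higher and 1 was lower, where 8.35% and 10.4% of all genes were. The values of the 2 populations did not overlap for 1 member, *Blvra*, which was higher, beside 0.883% of all genes that were higher without overlap and 3.02% that were lower.

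**Figure D1:**
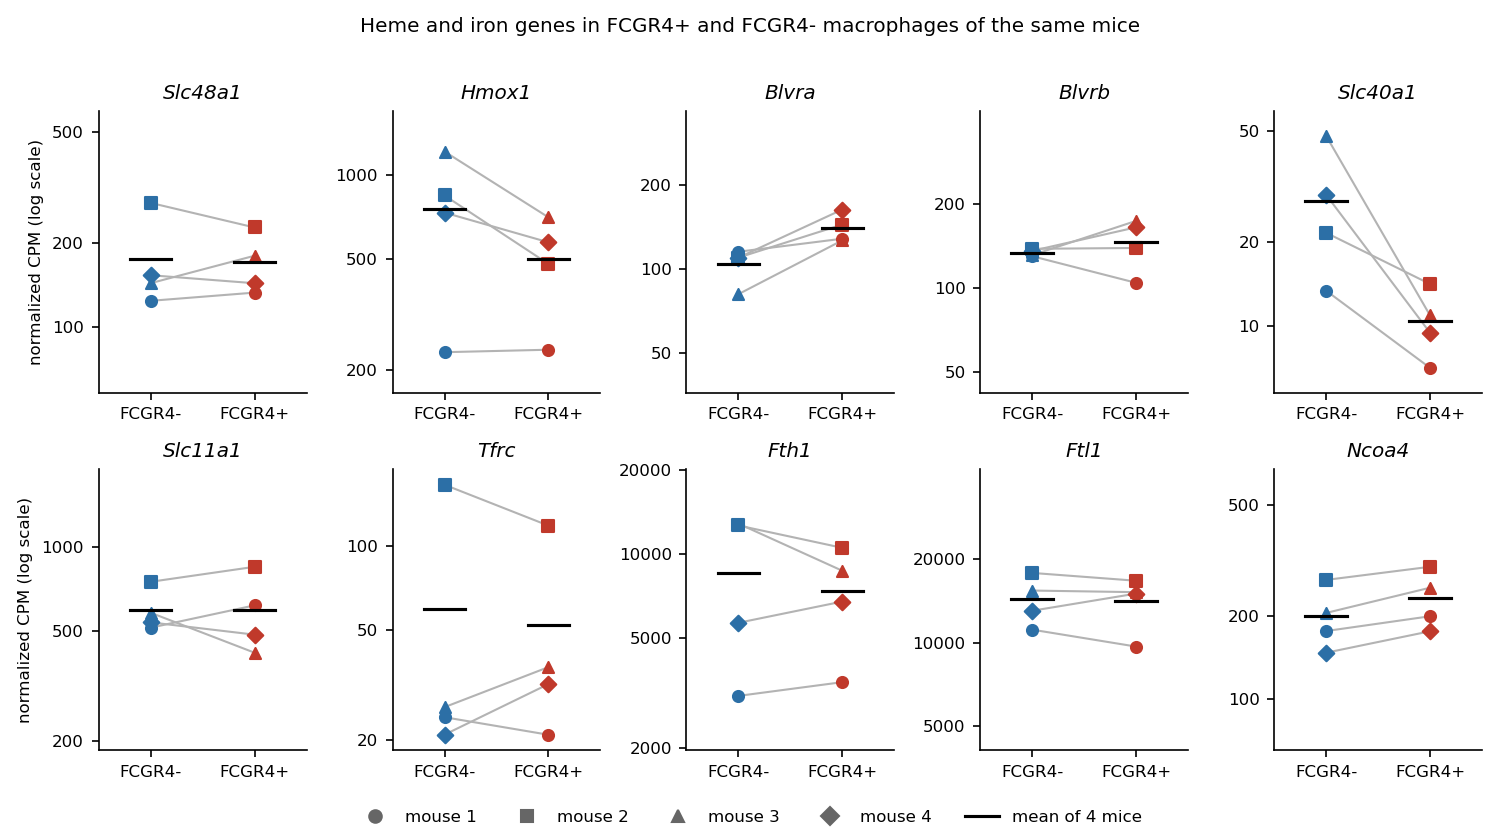
Normalized CPM of the 10 genes on a log scale of equal span in every panel, for FCGR4- (blue) and FCGR4+ (red) macrophages, with a line joining the libraries of 1 mouse and a bar at the mean of 4 mice. The FCGR4+ library was the lower in all 4 mice for *Slc40a1* and the higher in all 4 for *Blvra* and *Ncoa4*, while mouse 2 stood high in both populations for *Tfrc* and mouse 1 stood low in both for *Hmox1*.

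The breakdown arm began level at heme transport. *Slc48a1* (chromosome 15, 97778520 to 97792692) encodes HRG1, the transporter that carries heme out of the phagolysosome. It was read at 133, 228, 180.2 and 144 CPM in FCGR4+ macrophages of mice 1 to 4 and at 124, 279, 144 and 153 CPM in FCGR4- macrophages. The groups overlapped, with mouse 2 highest in both, and the log2 fold change was 0.01 ± 0.15 SE (95% interval -0.34 to 0.36, adjusted P = 0.988).

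*Hmox1* (chromosome 8, 75093621 to 75100589) encodes heme oxygenase 1, the inducible enzyme that opens the heme ring. It was read at 236, 479, 704 and 573 CPM in FCGR4+ macrophages and at 231, 844, 1213 and 732 CPM in FCGR4- macrophages of mice 1 to 4. It was lower in the FCGR4+ cells of 3 of 4 mice and level in mouse 1, where both populations were lowest, so the groups overlapped. The log2 fold change was -0.48 ± 0.18 SE (95% interval -0.90 to -0.07, unadjusted P = 0.0287 and adjusted P = 0.432 by edgeR), a ratio of 0.716. The mice differed more than the populations did, with 3.96-fold between the highest and lowest mouse on the mean of both populations. *Hmox2*, the constitutive heme oxygenase, had a log2 fold change of 0.18 ± 0.13 SE (adjusted P = 0.654). Per kilobase of gene length, *Hmox1* stood above *Hmox2* by a ratio of 3.70 ± 1.22 (SD, n = 4) in FCGR4+ and 6.29 ± 3.11 (SD, n = 4) in FCGR4- macrophages. The ratio was lower in the FCGR4+ cells of 4 of 4 mice, by little in mouse 1 (2.48 against 2.56), and the groups overlapped.

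The biliverdin reductases, which act next, gave different values. *Blvra* (chromosome 2, 127070665 to 127097084), the main reductase of the biliverdin that heme oxygenase makes, was read at 128, 144, 127 and 164 CPM in FCGR4+ macrophages and at 115, 109.9, 81.2 and 109.8 CPM in FCGR4- macrophages. It was higher in the FCGR4+ cells of 4 of 4 mice and the groups did not overlap. The log2 fold change was 0.44 ± 0.14 SE (95% interval 0.11 to 0.77, unadjusted P = 0.0152), a ratio of 1.36, and it missed the threshold over all genes (adjusted P = 0.330 by edgeR) while DESeq2 gave an adjusted P of 0.0861. *Blvrb* (chromosome 7, 27447978 to 27466144), the reductase of other biliverdin isomers and of flavins, was read at 104, 139, 174 and 165 CPM in FCGR4+ and at 130.0, 138, 131 and 136 CPM in FCGR4- macrophages. Its FCGR4- values lay within a narrow range that the FCGR4+ values spanned (log2 fold change 0.10 ± 0.16 SE, 95% interval -0.28 to 0.47, adjusted P = 0.842). The ratio of *Blvra* to *Blvrb* per kilobase was 1.13 ± 0.236 (SD, n = 4) in FCGR4+ and 0.884 ± 0.129 (SD, n = 4) in FCGR4- macrophages. It was higher in the FCGR4+ cells of 4 of 4 mice, and the groups overlapped.

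The iron exporter showed the widest difference of the 10. *Slc40a1* (chromosome 1, 45908068 to 45926523) encodes ferroportin. It was read at 7.05, 14.1, 10.9 and 9.42 CPM in FCGR4+ macrophages and at 13.3, 21.5, 48.0 and 29.5 CPM in FCGR4- macrophages of mice 1 to 4. It was lower in the FCGR4+ cells of 4 of 4 mice, and the groups overlapped only through mouse 2 in FCGR4+ and mouse 1 in FCGR4-. The log2 fold change was -1.33 ± 0.27 SE (95% interval -1.97 to -0.69), so the level in FCGR4- macrophages was 2.52 times that in FCGR4+ macrophages. The unadjusted P value was 0.00165 and the adjusted P value 0.116 by edgeR, just above the threshold. It was under the threshold by DESeq2 (adjusted P = 1.59e-04), by edgeR's newer quasi-likelihood method (adjusted P = 0.0409), with at least 10 counts asked of every library (adjusted P = 0.0521) and when the filter on low counts was dropped (adjusted P = 7.1e-05). With no block for the mouse the adjusted P value was 0.290. In mice 1 and 2 the log2 fold change was -0.77 and in mice 3 and 4 it was -1.92, a difference between the ID prefixes that was not tested.

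Markers of other cells were measured in the same libraries. In FCGR4- macrophages of mice 1 to 4 the neutrophil markers summed to 367, 371, 2325 and 597 CPM and the fibroblast markers to 759, 312, 1337 and 509 CPM, and both were highest in mouse 3, as *Slc40a1* was. The neutrophil sum had the same order of all 4 mice as *Slc40a1*, while the fibroblast sum was second in mouse 1, where *Slc40a1* was lowest. The mast cell and basophil markers, at 2072, 1133, 194 and 449.8 CPM, were lowest in mouse 3, and the dendritic cell markers, at 40.1, 92.2, 77.8 and 55.0 CPM, were highest in mouse 2. The mesothelial markers, at 3.91, 2.41, 27.0 and 7.17 CPM, were highest in mouse 3, and their sum was lower in FCGR4+ macrophages in 4 of 4 mice. In FCGR4+ macrophages the neutrophil and fibroblast markers summed to 109, 167, 523 and 145 CPM and to 127, 170.2, 254 and 228 CPM, highest in mouse 3, whereas *Slc40a1* was highest in mouse 2. *Hmox1* was also highest in mouse 3 in both populations. The part of these markers in either result was not tested.

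**Figure D2:**
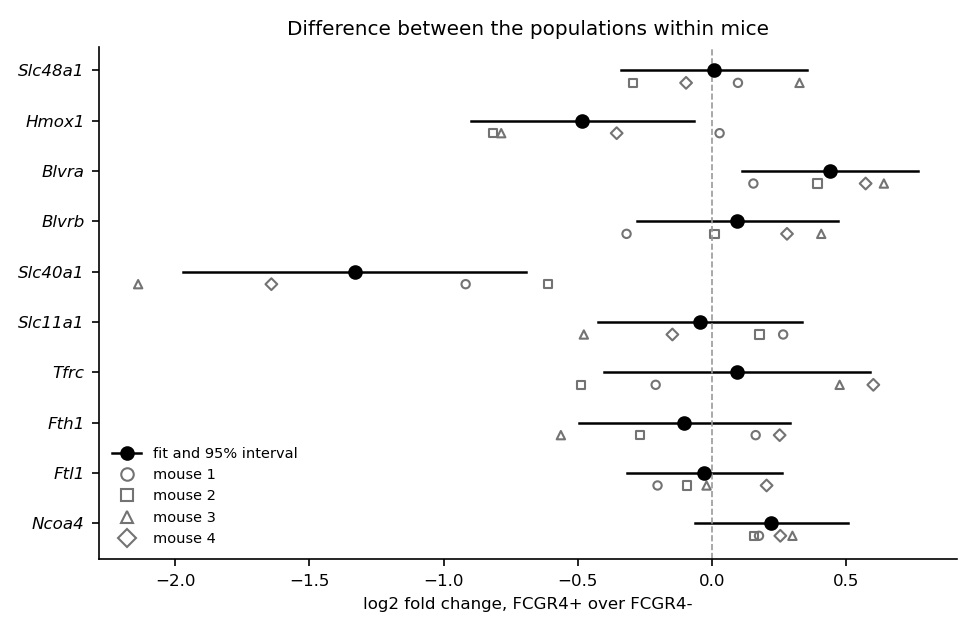
Log2 fold change of FCGR4+ over FCGR4- macrophages for each gene, with the fitted value and its 95% interval in black and the ratio in each of 4 mice as an open symbol. The intervals of *Slc40a1* and *Hmox1* lie below 0 and that of *Blvra* above it before adjustment, and the other 7 intervals cross 0.

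Of the metal transporter of the phagolysosome and the receptor for transferrin, neither differed between populations beyond the spread. *Slc11a1* (chromosome 1, 74375195 to 74386062) encodes NRAMP1, which moves iron and manganese out of the phagolysosome. Its CPM was 616, 848, 417 and 484 in FCGR4+ and 512, 749, 580.0 and 536 in FCGR4- macrophages, higher in FCGR4+ cells of mice 1 and 2 and lower in those of mice 3 and 4. The log2 fold change was -0.04 ± 0.16 SE (95% interval -0.42 to 0.34, adjusted P = 0.936). *Tfrc* (chromosome 16, 32608920 to 32632794) encodes the transferrin receptor, through which cells take up transferrin-bound iron and whose mRNA carries the 3′ hairpins shown above. Its CPM was 20.9, 118, 36.6 and 31.8 in FCGR4+ and 24.2, 165, 26.3 and 21.0 in FCGR4- macrophages. Mouse 2 was highest in both populations, and the range between mice on the mean of both was 6.20-fold, the widest of the members. The log2 fold change was 0.09 ± 0.21 SE (95% interval -0.40 to 0.59, adjusted P = 0.886), lower in FCGR4+ cells of mice 1 and 2 and higher in those of mice 3 and 4.

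Ferritin, the storage shell built of heavy and light chains, was the most abundant product among the members. *Fth1* (chromosome 19, 9982703 to 9985092), the heavy chain that oxidizes iron for storage, was read at 3457, 10498, 8684 and 6731 CPM in FCGR4+ macrophages and at 3085, 12628, 12824 and 5647 CPM in FCGR4- macrophages. Mouse 1 was lowest in both populations and the groups overlapped (log2 fold change -0.10 ± 0.17 SE, 95% interval -0.50 to 0.29, adjusted P = 0.840). *Ftl1* (chromosome 7, 45457944 to 45459884), the light chain, was read at 9678, 16683, 15179 and 15002 CPM in FCGR4+ and at 11132, 17798, 15383 and 13018 CPM in FCGR4- macrophages. It too was lowest in mouse 1 in both (log2 fold change -0.03 ± 0.12 SE, 95% interval -0.32 to 0.26, adjusted P = 0.947). The interval of *Fth1* reached past the fitted value of *Hmox1*, and neither ferritin interval reached that of *Slc40a1*. Together the 2 genes held 2.07% ± 0.544 (SD, n = 4) of the counts in FCGR4+ and 2.33% ± 0.687 (SD, n = 4) in FCGR4- macrophages. The ratio of *Fth1* to *Ftl1* per kilobase was 0.776 ± 0.189 (SD, n = 4) in FCGR4+ and 0.872 ± 0.393 (SD, n = 4) in FCGR4- macrophages.

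Ferritin genes have many processed copies in the genome, and read pairs that mapped to several places had been counted at each. Of the stretches of 50 bases in *Ftl1* transcripts, 58.4% occurred in 17 other genes, and 47.3% occurred in *Ftl1-ps1* alone. The named copies followed the gene closely: *Ftl1-ps1* held 47.5% to 52.1% of the *Ftl1* counts in the 8 libraries, *Ftl2-ps* 32.2% to 34.8% and *Ftl1-ps2* 4.75% to 5.01%. *Gm15590* and *Gm12164*, which share sequence with *Ftl1* but are not named as copies, held 36.1% to 38.2% and 6.36% to 7.10%. Not every gene that shares sequence with *Ftl1* took counts: *Gm10252*, with 21.5% of the stretches, held 0 to 5 counts and *Gm47428*, with 17%, held 0 to 1. The log2 fold changes of the 3 named copies, -0.04, -0.05 and -0.01, lay next to that of *Ftl1*, and reads of the gene and of these copies cannot be told apart in counts made this way. For *Fth1*, 1.59% of such stretches occurred in another gene, *Gm6977*, and the named copies *Fth-ps2* and *Fth-ps3* held at most 0.00938% and 0.0226% of its counts. With only the named copies added to each gene, the log2 fold change of *Ftl1* was -0.04 and that of *Fth1* -0.10, and the share of all counts was 3.28% ± 0.786 (SD, n = 4) in FCGR4+ and 3.65% ± 0.888 (SD, n = 4) in FCGR4- macrophages. A pair counted at several of these rows enters the sum repeatedly, so the summed value is not a share of read pairs. For the same reason the likeness of the copies and of the summed *Ftl1* value to *Ftl1* is no independent check.

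**Figure D3:**
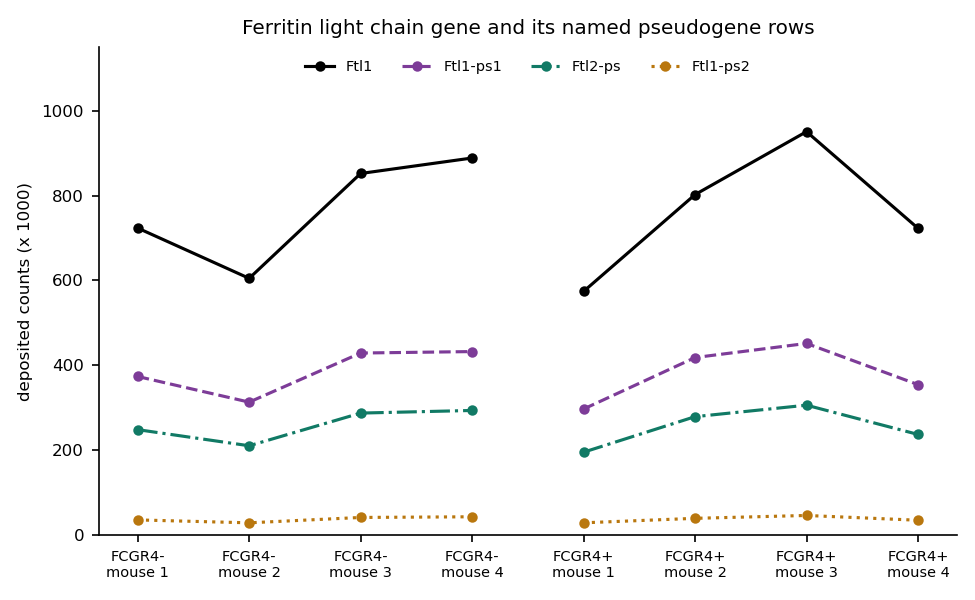
Deposited counts (the axis divides them by a fixed factor) of *Ftl1* and of 3 rows named as its copies in each of the 8 libraries, with lines joining the libraries of 1 population. The 3 copies keep nearly fixed shares of *Ftl1*, at 47.5% to 52.1%, 32.2% to 34.8% and 4.75% to 5.01%.

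*Ncoa4* (chromosome 14, 32159865 to 32179855) encodes the receptor that hands ferritin to the lysosome for release of its iron. Its CPM was 199, 299, 252 and 176 in FCGR4+ and 176, 269, 204 and 147 in FCGR4- macrophages, higher in the FCGR4+ cells of 4 of 4 mice, with wide overlap between the groups. The log2 fold change was 0.22 ± 0.12 SE (95% interval -0.06 to 0.51, adjusted P = 0.584), and the ratios within single mice, on the log2 scale 0.18, 0.16, 0.30 and 0.26, were the most alike among the members. Of its 50-base stretches 17.9% occurred in *Gm6768*, whose counts were 42.5% to 56.1% of those of *Ncoa4*, so its level is uncertain in the same way as that of *Ftl1*.

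Compared by level per kilobase, the members fell into tiers. In FCGR4+ macrophages *Ftl1* stood at 10549 ± 2288 and *Fth1* at 8479 ± 3479 CPM per kilobase (SD, n = 4), which overlapped. *Hmox1* followed at 284 ± 113 and *Slc11a1* at 159.6 ± 51.3, also with overlap. *Slc48a1*, *Blvra* and *Blvrb* formed the next tier, at 62.2 ± 15.6, 57.6 ± 7.0 and 52.4 ± 11.3 CPM per kilobase, with overlap between neighbours. *Ncoa4* at 24.7 ± 5.92 overlapped *Tfrc* at 8.39 ± 7.21 through mouse 2, and *Slc40a1* came last at 1.15 ± 0.328. In FCGR4- macrophages *Slc40a1* was again last, at 3.12 ± 1.65 CPM per kilobase, and *Ftl1* again first, at 10696 ± 2158. On this scale *Ftl1* and *Fth1* stood above 99.9% of all genes tested and *Hmox1* above 98.9%, while *Slc40a1* stood above 46.9%.

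The spread between mice was of the kind seen over all genes. The range between the 4 mice, on the mean log2 CPM of both populations, exceeded the difference between populations for 8 of 10 members, beside 90.0% of all genes, and *Slc40a1* and *Blvra* were the 2 exceptions. It was 2.63 on the log2 scale for *Tfrc*, 1.99 for *Hmox1* and 1.82 for *Fth1*, and 0.38 for *Blvrb*. The mice also differed in red cell RNA. *Hba-a1*, an alpha globin gene, was read at 16.1, 6.59, 818 and 265 CPM in FCGR4+ and at 36.2, 20.8, 653 and 200.5 CPM in FCGR4- macrophages of mice 1 to 4, far higher in mice 3 and 4 than in mice 1 and 2 in both populations. In FCGR4+ macrophages *Hmox1* was highest in mouse 3 and next in mouse 4, as *Hba-a1* was. The lower mice did not share the order, with *Hmox1* lowest in mouse 1 and *Hba-a1* lowest in mouse 2. In FCGR4- macrophages it was highest in mouse 3, then in mouse 2, where *Hba-a1* was lowest, and then in mouse 4. The classical monocyte markers summed to 475, 256, 2078 and 2386 CPM in FCGR4+ macrophages of mice 1 to 4. In FCGR4- macrophages they summed to 436, 402, 2811 and 2214 CPM, so they too were higher in mice 3 and 4 in both populations. The part of red cell RNA and of these markers in the differences between mice was not tested.

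**Figure D4:**
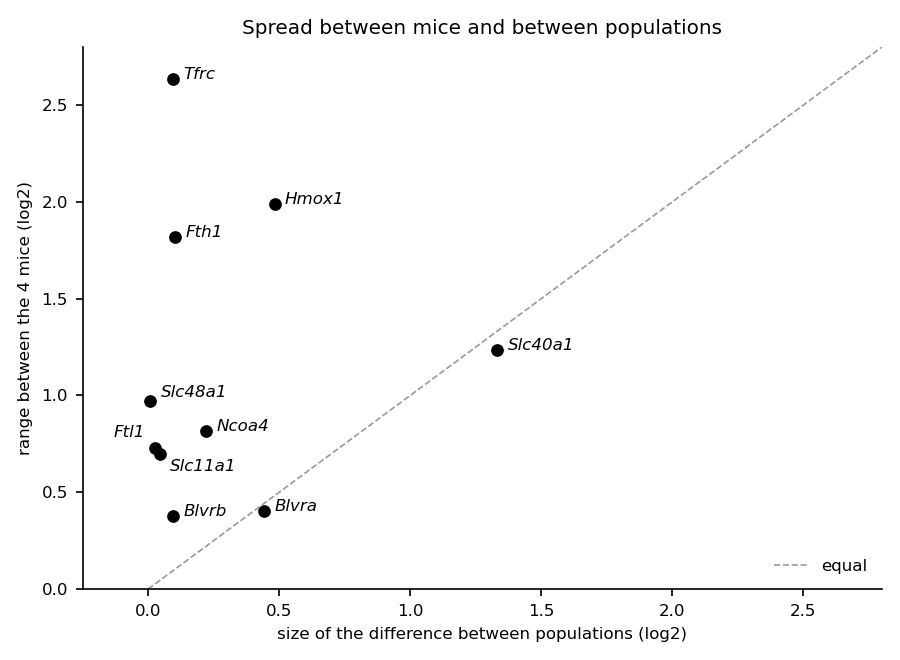
For each of the 10 genes, the range between the 4 mice in mean log2 CPM against the size of the log2 difference between FCGR4+ and FCGR4- macrophages, with a dashed line where both are equal. *Slc40a1* and *Blvra* lie just under the line and the other 8 genes above it, *Tfrc* farthest.

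By likeness of pattern over the 8 libraries, which share 4 mice, the genes nearest to *Hmox1* were *Nt5e*, *Clec4d* and *Sntb2* (Pearson r of log2 CPM 0.991, 0.989 and 0.987). Those nearest to *Slc40a1* were *Cdk2ap2*, *Osgin1* and *Lynx1* (r = 0.978, 0.969 and 0.950). None of the 6 passed the threshold between populations, with adjusted P values by edgeR of 0.418, 0.330 and 0.565 for the first 3 and 0.583, 0.153 and 0.622 for the others. Being the best of all genes tested, such r values are a description only.

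The other genes of heme and iron handling were taken from a list of 56, of which 52 were tested. None of the 52 was called higher and 2 were called lower, *Cd163* and *Lcn2*, beside 0.0819% and 1.19% of all genes. The median log2 fold change of the 52 was 0.04, and 6 had an unadjusted P value under 0.05, 5 of them with lower values, beside 6.67% of all genes with lower values. *Hpx*, *Tfr2*, *Heph* and *Hamp* did not pass the filter on low counts. DESeq2 called 4 of the 52, all lower, beside 4.87% of all genes. A further list held 7 targets of NRF2 outside iron handling, all tested, of which 1, *Slc7a11*, was called lower. With no block for the mouse, edgeR called 0 of these 59 genes and 48 genes in all, against 217 with it.

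Uptake of heme in its bound forms held the first of the calls. *Cd163*, the macrophage receptor for complexes of hemoglobin and haptoglobin, was read at 35.5, 12.7, 39.0 and 21.1 CPM in FCGR4+ macrophages and at 53.8, 23.7, 80.4 and 51.4 CPM in FCGR4- macrophages, lower in 4 of 4 mice. It fell by 0.96 on the log2 scale (± 0.15 SE, adjusted P = 0.0602 by edgeR), and the level in FCGR4- macrophages was 1.94 times that in FCGR4+. With 1 mouse left out the log2 fold change lay between -1.08 and -0.85, and the adjusted P value was 0.104, 0.162, 0.119 and 0.212 without mouse 1, 2, 3 and 4. In FCGR4- macrophages *Cd163* had the same order of mice as the sum of fibroblast markers, which was also lower in FCGR4+ macrophages in 4 of 4 mice, and their part in this result was not tested. Of the 10 genes tested in this group, 1 was called, and the values ran from -1.62 ± 1.45 SE for *Flvcr2*, a choline and heme transporter near the detection limit (adjusted P = 0.711, and -0.36 without mouse 3), to 0.28 ± 0.27 SE for *Abcg2*, an exporter of porphyrins (adjusted P = 0.728). *Hp*, the haptoglobin that binds free hemoglobin, had a log2 fold change of -1.22 ± 0.36 SE (adjusted P = 0.297), lower in 3 of 4 mice. It was called without mouse 1 (-1.67, adjusted P = 0.0586), by DESeq2 (adjusted P = 0.00426) and without the filter (adjusted P = 2.62e-04). In heme synthesis none of 8 passed, between -0.40 ± 0.18 SE for *Alas1*, its rate-limiting first enzyme outside red cells (adjusted P = 0.527), and 0.45 ± 0.18 SE for *Uros* (adjusted P = 0.479).

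Iron uptake and release from endosomes held the second. *Lcn2*, the lipocalin that binds bacterial siderophores and is also a granule protein of neutrophils, was read at 2.93, 2.25, 15.4 and 6.89 CPM in FCGR4+ and at 8.66, 9.0, 95.2 and 23.4 CPM in FCGR4- macrophages. It fell by 1.99 on the log2 scale (± 0.21 SE, adjusted P = 0.0157 by edgeR), lower in 4 of 4 mice, while the groups overlapped through mouse 3. The call was kept with each mouse left out (adjusted P = 0.0233 to 0.0662). The neutrophil markers were highest in the same FCGR4- library, at 2325 CPM in sum, and their part in this result was not tested. Of 8 genes tested in the group 1 was called, and *Slc39a8*, a metal importer, had the highest value (0.13 ± 0.33 SE, adjusted P = 0.902). An unadjusted P value under 0.05 was reached by 3 of the 8, all with lower values in 4 of 4 mice, beside 6.67% of all genes with lower values. Beside *Lcn2* these were *Steap4*, a metalloreductase (-1.76 ± 0.56 SE, adjusted P = 0.337 by edgeR, 0.00641 by DESeq2 and 1.76e-04 without the filter), and *Slc39a14*, an importer of iron and zinc (-0.66, adjusted P = 0.490 by edgeR). *Steap4* was read at 14.2, 6.39, 57.1 and 11.3 CPM in FCGR4- macrophages of mice 1 to 4. That is the order of mice of the fibroblast marker sum, and the part of these markers in the *Steap4* result was not tested. Of export partners and hepcidin, *Cp*, the ferroxidase ceruloplasmin, was tested alone (-0.39 ± 0.19 SE, adjusted P = 0.560), and stood at -0.0084 in mice 1 and 2 and at -0.79 in mice 3 and 4.

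Sensing of iron and its use in mitochondria showed no call. Of 6 genes of iron sensing and ferritin loading, values ran from -0.26 ± 0.22 SE for *Fbxl5*, the iron-sensing subunit of a ubiquitin ligase (adjusted P = 0.695), to 0.52 ± 0.25 SE for *Ireb2*, the iron regulatory protein 2 that binds the hairpins printed above (adjusted P = 0.545). Of 13 genes of mitochondrial iron and iron-sulfur cluster assembly, values ran from -0.47 ± 0.22 SE for *Abcb10* to 0.37 ± 0.20 SE for *Hscb*, a co-chaperone of cluster assembly (adjusted P = 0.533 and 0.585). Without mouse 3 the log2 fold change was 0.25 for *Ireb2*, 0.22 for *Hscb* and -0.22 for *Alas1*, and with 1 mouse left out *Fbxl5* ran from -0.51 to -0.085. Of 6 regulators that answer to heme or oxidants, *Mafg*, a small partner of NRF2, had the lowest value (-0.37 ± 0.18 SE, adjusted P = 0.556), and *Bach1*, the heme-binding repressor of *Hmox1*, the highest (0.32 ± 0.17 SE, adjusted P = 0.577). The value was -0.23 for *Mafg* without mouse 3 and 0.20 for *Bach1* without mouse 4.

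The third call lay among targets of NRF2, the transcription factor that also drives *Hmox1*. *Slc7a11*, the cystine importer of glutathione synthesis, was read at 3.84, 8.82, 18.5 and 5.67 CPM in FCGR4+ and at 6.73, 70.8, 163 and 20.1 CPM in FCGR4- macrophages. It fell by 2.23 on the log2 scale (± 0.40 SE, adjusted P = 0.0772 by edgeR), lower in 4 of 4 mice, with the widest gap in mice 2 and 3. Its highest value lay in the FCGR4- library of mouse 3, where the neutrophil and fibroblast markers also summed highest, and their part in this result was not tested. The call was kept without mouse 1 (adjusted P = 0.0428) and lost without mouse 2, 3 or 4 (adjusted P = 0.228, 0.135 and 0.189). Of the 7 targets outside iron handling 6 had lower values and 5 of these an unadjusted P value under 0.05, beside 6.67% of all genes with lower values. DESeq2 called 5 of the 7, all lower, beside 4.87% of all genes. The list was chosen with earlier results of these data known. The median log2 fold change of the 7 was -0.62 beside -0.00 over all genes. *Nqo1*, a quinone reductase, was lowest at -2.31 ± 0.59 SE (adjusted P = 0.210, and by DESeq2 an adjusted P of 0.00441), with values of 0.0843 to 1.02 CPM in FCGR4+ and 0.894 to 6.16 CPM in FCGR4- macrophages, and *Prdx1*, a peroxiredoxin, was level (0.00 ± 0.17 SE, adjusted P = 0.994).

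**Figure D5:**
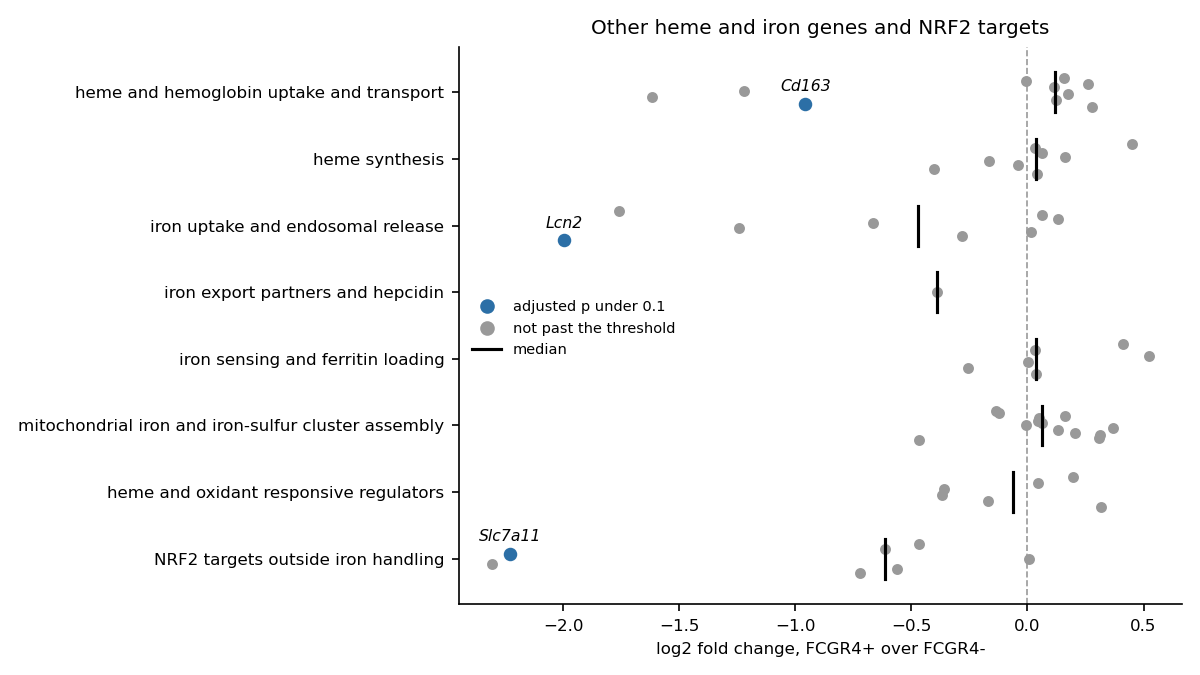
Log2 fold change of FCGR4+ over FCGR4- macrophages for the 52 other heme and iron genes and the 7 NRF2 targets tested, by group, with the median of each group as a bar. The 3 genes past the threshold, *Cd163*, *Lcn2* and *Slc7a11*, are named and lie below 0, and the groups of heme synthesis, iron sensing and mitochondrial iron lie around 0.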

How the data were processed

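The authors mapped reads to mm10 with STAR and counted them per gene with featureCounts 1.6.3. The deposited values are raw counts of read pairs, and the deposited file's own record shows GENCODE vM18 genes, no use of strand, and pairs that map to several places counted at each. Gene lengths are the authors' and served for levels per kilobase. Identifiers were matched to symbols (54079 of 54146). Samples were grouped by their titles, and 0 columns were left out.

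Of these genes, 17095 had 10 counts or more in 4 or more of the 8 libraries and were tested on TMM-normalized libraries with edgeR 4.0.16 (quasi-likelihood test, R 4.3.3). Mouse entered as a block, P values were adjusted by Benjamini-Hochberg, and the threshold was 0.1. The SE is the log2 fold change over the square root of F, and CPM on the log2 scale carries a prior count of 2. Each population comes from the same 4 mice, which is the pairing in the labels. Deviations from the group means correlated at 0.291 to 0.428 between libraries of 1 mouse, against a median of -0.0615 between mice. Replicates differed by more than counting error. A total of 3 counts equals 0.0440 to 0.0883 CPM, and such limits cover counting error only.

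UTRs and 50-base stretches came from a later GENCODE release on the same build. Named are the 10 members, other pathway genes past the threshold and those with the highest and lowest value in each group, *Fcgr4*, and the 3 genes most like *Hmox1* and *Slc40a1* among those with a mean of at least 1 CPM. *Hp*, *Steap4*, *Slc39a14*, *Hmox2*, *Hba-a1*, *Adgre1*, *Fcgr1* and *Mertk* were named after their values were seen. The members and lists were chosen with earlier results of these data known. Alternatives were no block, DESeq2 1.42.0, RLE factors, library size alone, other filters, a threshold of 0.05, the newer quasi-likelihood method, ferritin copies summed, each mouse left out, and each ID prefix alone.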

Additional observations from a re-analysis of the deposited data

Results flagged for a closer look

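In 2 of 30 groups of 4 values examined, 1 mouse stood apart from the other 3, where chance gives about 1.5 such groups. The *Tfrc* level in FCGR4- macrophages was 4.60, 7.37, 4.72 and 4.39 log2 CPM in mice 1 to 4, so the gap below mouse 2 took 0.890 of the whole range, above the limit of 0.829. The *Blvra* level in FCGR4- macrophages was 6.85, 6.78, 6.34 and 6.78 log2 CPM, and the gap above mouse 3 took 0.861 of the range.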

How the results depend on the processing

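*Hmox1* and *Ncoa4* kept their direction and their side of the threshold under all 15 alternatives, and *Fcgr4* its call, at log2 fold changes of 1.42 to 1.78. *Slc40a1* kept its direction under all 15, from -1.92 to -0.77, and was called under 4 of them. Of the members, 2 were called by DESeq2, *Slc40a1* and *Blvra*, and 1, *Slc40a1*, with no filter, with 10 counts in every library and by the newer quasi-likelihood method. Of the 59 other pathway genes, NRF2 targets included, where 3 had been called, 9 were called by DESeq2, 8 with no filter, 1 at a threshold of 0.05, and 0 in mice 1 and 2 alone or in mice 3 and 4 alone. Over all genes, where 217 had been called, 1024 were called by DESeq2, 1054 with no filter, 629 by the newer method, 76 at a threshold of 0.05, 115 in mice 1 and 2 and 72 in mice 3 and 4. Without the filter the median log2 fold change of all genes was -0.16. Why these counts differ was not tested.

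Without the replicate block for mouse, 0 pathway genes and 48 genes in all were called, *Slc48a1* stood at -0.033 and *Tfrc* at -0.19, and the block changed no call among the members.

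With each mouse left out in turn, 0 members were called, 1 to 3 other pathway genes and 78 to 162 of all genes. *Lcn2* was called each time, *Cd163* never, and *Slc7a11* only without mouse 1, as was *Hp*, which was not called with all 4 mice. *Nqo1* was called by DESeq2, with no filter and by the newer method (adjusted P = 0.00441, 0.00912 and 0.0439). Neither pair of mice alone called any of these 3. The count over all genes was 78 without mouse 1, 118 without mouse 2 and 91 without mouse 4. Members near 0 changed sign, with ranges of -0.15 to 0.088 for *Slc11a1*, -0.11 to 0.14 for *Slc48a1*, -0.22 to 0.039 for *Fth1*, -0.10 to 0.031 for *Ftl1*, -0.075 to 0.32 for *Tfrc* and -0.020 to 0.23 for *Blvrb*. In mice 1 and 2 alone *Slc11a1* stood at 0.22, *Slc48a1* at -0.10, *Tfrc* at -0.35 and *Blvrb* at -0.15, in mice 3 and 4 alone *Ftl1* at 0.072, and *Slc48a1* stood at -0.080 with library size alone and at -0.0075 with 10 counts in every library. These members lay within 1 SE of 0, so no direction is given for them. Other named genes changed sign as well. *Abcg2* stood at -0.20 in mice 1 and 2 and between -0.012 and 0.52 with a mouse left out, *Slc39a8* between -0.15 and 0.39, *Fbxl5* at 0.015 in mice 1 and 2, and *Prdx1* at -0.084 with library size alone, -0.012 with 10 counts in every library, -0.28 in mice 1 and 2 and between -0.15 and 0.17 with a mouse left out. Among the members, the 95% intervals were widest for *Slc40a1* and *Tfrc*. Their log2 ratios within single mice ran from -2.14 to -0.61 and from -0.49 to 0.60, and they also have the fewest counts. The reason for the width was not tested.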
